A study of Homo sapiens with 6 samples.

Results

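The 7 long non-coding transcripts MIR222HG, MIR503HG, MIR22HG, MIR17HG, MIR210HG, MIR100HG and MIR4435-2HG are named as hosts of microRNAs, and all 7 were found by their gene names among the 58735 genes of the deposited tables. They were chosen with their difference between the compared groups already known, so their values are given as a description, without p-values. All samples were MDA-MB-231, an established human line of triple-negative breast cancer, labelled wild type. Cells were stained with PKH26, a membrane dye that is shared out at each division, and grown for 12 days before sorting by fluorescence. Slow-cycling cells (SCC) were the brightest 1%, and rapid-cycling cells (RCC) were cells of moderate brightness, although a second label calls them low in dye. Each group had 3 biological replicates, and both had the same stain and chase, so no library came from unstained or unsorted cells.

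A microRNA host gene is transcribed by RNA polymerase II into a long RNA that holds 1 or more hairpins. DROSHA with DGCR8 cuts the hairpins out of that primary transcript in the nucleus, and DICER1 trims each to the short mature strand, which an Argonaute protein carries to matching sites in messenger RNAs. Bases 2 to 8 of the mature strand, the seed, pair with the target. The spliced host RNA can persist after the hairpin has been cut out, so its level is not the level of the mature microRNA. No library here measured short RNA.

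The mature strands of the hairpins that lie in or overlap the 7 hosts show which seeds belong to these loci. RefSeq (GRCh38.p14) matched all 16 such hairpins and gave 30 mature sequences. Of the 16, MIR424 has 19 bases inside MIR503HG, and both of its mature strands lie beyond the annotated start of that transcript. The best-known strands are printed 5′ to 3′ with the seed in capitals.
hsa-miR-221-3p: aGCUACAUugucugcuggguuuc
hsa-miR-222-3p: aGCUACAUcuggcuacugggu
hsa-miR-503-5p: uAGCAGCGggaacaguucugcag
hsa-miR-424-5p: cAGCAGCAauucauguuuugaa
hsa-miR-22-3p: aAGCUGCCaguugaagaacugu
hsa-miR-17-5p: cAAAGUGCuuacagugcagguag
hsa-miR-20a-5p: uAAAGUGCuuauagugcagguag
hsa-miR-18a-5p: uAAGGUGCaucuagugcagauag
hsa-miR-19a-3p: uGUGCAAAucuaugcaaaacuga
hsa-miR-19b-3p: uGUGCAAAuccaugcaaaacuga
hsa-miR-92a-3p: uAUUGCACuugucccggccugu
hsa-miR-210-3p: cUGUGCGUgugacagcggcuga
hsa-miR-100-5p: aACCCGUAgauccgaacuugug
hsa-let-7a-5p: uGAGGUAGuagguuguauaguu
hsa-miR-125b-5p: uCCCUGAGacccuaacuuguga
hsa-miR-4435: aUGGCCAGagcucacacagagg
The pair from MIR222HG, miR-221-3p and miR-222-3p, had the same seed, GCUACAU. From MIR17HG, miR-17-5p and miR-20a-5p shared the seed AAAGUGC, and miR-19a-3p and miR-19b-3p shared GUGCAAA. At the MIR503HG locus, miR-503-5p (seed AGCAGCG) and miR-424-5p (seed AGCAGCA) had different seeds.

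The hosts fell into 3 sets. MIR222HG, MIR503HG, MIR17HG and MIR100HG were lower in SCC than in RCC, with log2 fold changes (SCC over RCC) from -0.58 to -1.16. MIR22HG was 2.73 times higher in SCC. MIR210HG was level, and MIR4435-2HG was 1.12 times lower in SCC. For 6 of the 7, every library of one group lay outside the range of the other group, against 27.8% of the 15881 tested genes. By edgeR's quasi-likelihood test over all of those genes, at an adjusted p under 0.05, 3 hosts were called lower in SCC (MIR222HG, MIR503HG and MIR100HG), where 0.378% of genes were called lower. MIR22HG was called higher, where 1.69% of genes were. That makes 4 hosts called in either direction, against 2.07% of genes. Under limma on log2(FPKM + 1) without a filter, MIR22HG was the 1 host called. MIR17HG was not called here but was in 7 of the 15 other settings that gave it a value, among them without SCC replicate 1 and without SCC replicate 2. Because the hosts were picked on this contrast, nothing is read from these calls or shares.

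**Figure D1:**
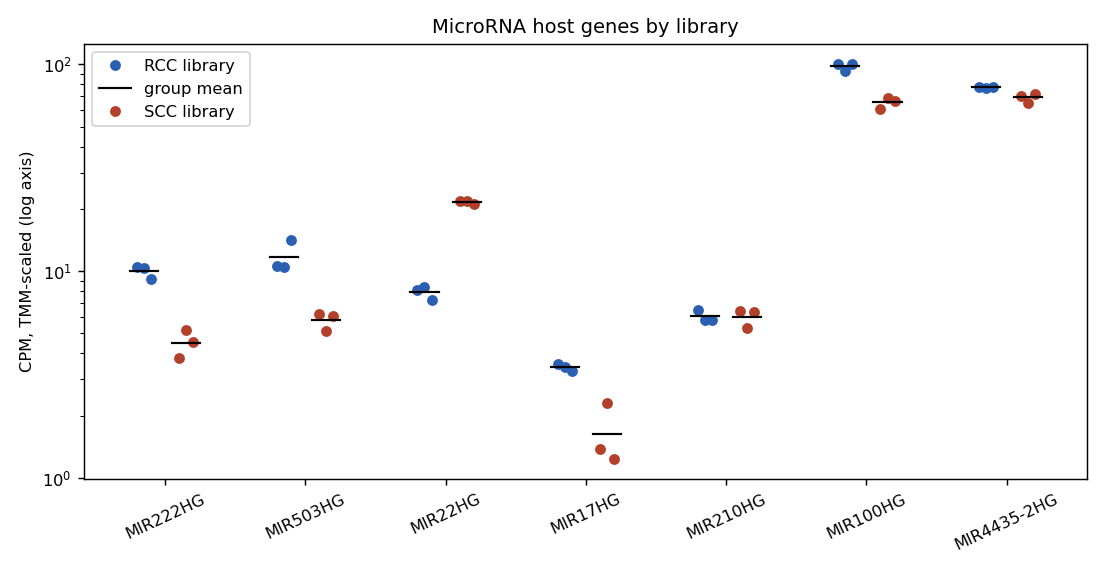
Level of each of the 7 host transcripts in every library, in CPM on a log axis, with a line at the group mean (n = 3 per group). Points of the SCC and RCC libraries do not overlap for 6 of the 7 genes, and MIR210HG is the exception.

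Summed counts ran from 17655855 in RCC replicate 3 to 27831824 in SCC replicate 1. VIM and CD44, expected to be high in this line, were high in both groups: VIM at a mean of 795 CPM in SCC and 776 in RCC, and CD44 at 357 and 350. ESR1 and PGR were at or below 0.461 CPM on average. ERBB2 and EPCAM had been listed as low. EPCAM averaged 4.33 CPM over SCC and 5.00 over RCC, but ERBB2 RNA was well detected, at 85.8 ± 18.3 and 74.9 ± 1.4 CPM (SD, n = 3 each). Leukocyte, endothelial and fibroblast markers were low, with means up to 2.99 CPM for PECAM1 in SCC, and CD3E, LYZ, HBB and DCN were each at 0 in at least 1 library. PTPRC, a leukocyte gene, ranged from 0.256 to 1.97 CPM in SCC and from 0.143 to 0.559 CPM in RCC. Its highest value was in SCC replicate 1, as was that of LYZ, at 0.482 CPM there and 0 in SCC replicates 2 and 3. The share of counts on mitochondrial genes moved with the groups, at 4.56% ± 0.17 in SCC and 3.89% ± 0.11 in RCC (SD, n = 3 each), and SCC replicate 1 stood apart from the other 2 SCC libraries. Its counts differed from theirs by a chi-square of 24.6 and 18.6 for each degree of freedom, against 3.17 to 4.08 for the other pairs of a group. Without it the host log2 fold changes were -1.05 for MIR222HG and for MIR503HG, -0.97 for MIR17HG, -0.53 for MIR100HG and 1.44 for MIR22HG. The part of the mitochondrial share in the host values was not tested. These are bulk samples, so fewer cells with a transcript and less of it per cell cannot be told apart.

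MIR222HG lies at X:45745211-45770274 on the minus strand (GRCh38), a lincRNA of 2785 exonic bases that yields miR-221 and miR-222, microRNAs known for repressing the cell cycle inhibitor CDKN1B. Its level was 3.82, 5.16 and 4.55 CPM in SCC replicates 1 to 3, where CPM is the count relative to the library's total after TMM scaling. In RCC replicates 1 to 3 it was 10.5, 10.4 and 9.17 CPM. The highest SCC library was below the lowest RCC library. The means were 4.51 ± 0.67 and 10.0 ± 0.74 CPM (SD, n = 3 each), and the fitted log2 fold change was -1.16 (standard error 0.15). No exonic base of MIR222HG is shared with another annotated gene. The counts behind these values were 96 to 103 reads per SCC library and 164 to 242 per RCC library.

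MIR503HG, at X:134543337-134546632 on the minus strand, holds the miR-503 hairpin and overlaps the end of miR-424, whose products are known to target cyclins and other cell cycle genes. It had 6.23, 5.11 and 6.07 CPM in the SCC replicates and 10.6, 10.4 and 14.1 CPM in the RCC replicates. All 3 SCC libraries were low, and RCC replicate 3 stood above the other RCC libraries. The fitted log2 fold change was -1.0 (standard error 0.16). Leaving out RCC replicate 3 gave -0.86.

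MIR17HG, at 13:91347820-91354579 on the plus strand, carries the 6 hairpins of the miR-17-92 cluster, which is known as a MYC-driven growth-promoting cluster. It was the lowest of the 7 hosts, at 1.37, 2.30 and 1.23 CPM in SCC against 3.56, 3.44 and 3.30 CPM in RCC. The groups did not overlap, but SCC replicate 2 lay well above the other SCC libraries. Only 26 to 45 reads per SCC library and 59 to 82 per RCC library stood behind these values. The fitted log2 fold change was -1.09 (standard error 0.26). It was -1.41 without SCC replicate 2 and -0.94 without SCC replicate 3.

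MIR100HG, at 11:122028327-122556721 on the minus strand, is the host of miR-100, let-7a-2 and miR-125b-1. It gave many more reads than the hosts above, with 61.1, 69.2 and 66.5 CPM in SCC and 101, 93.0 and 101 CPM in RCC. The difference was smaller and the replicates were closer together: log2 fold change -0.58, standard error 0.08. The SCC libraries lay at 65.6 ± 4.1 CPM and the RCC libraries at 98.1 ± 4.4 CPM (SD, n = 3 each).

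MIR22HG, at 17:1711493-1717174 on the minus strand, hosts miR-22, a microRNA known for targeting CDK6, and was the one host that was higher in SCC. It had 21.8, 21.9 and 21.2 CPM in the SCC replicates and 8.09, 8.36 and 7.27 CPM in the RCC replicates. The SCC libraries differed from each other by less than 1 CPM and lay far above every RCC library. The fitted log2 fold change was 1.45 (standard error 0.10). Without each library in turn it ran from 1.39 to 1.49.

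MIR210HG, at 11:565660-568457 on the minus strand, hosts miR-210, the best-known hypoxia-induced microRNA. Its values were 6.42, 5.32 and 6.36 CPM in SCC and 6.52, 5.78 and 5.82 CPM in RCC. These ranges overlap, and the fitted value was -0.00 on the log2 scale (standard error 0.15). HIF1A, which encodes the oxygen-sensitive factor known to drive miR-210, had a log2 fold change of -0.06 (edgeR adjusted p = 0.699).

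MIR4435-2HG, at 2:111036776-111523376 on the minus strand, is a lincRNA whose mouse counterpart is known to control the overlapping death gene Bcl2l11 in myeloid cells. It had 70.1, 65.3 and 72.3 CPM in SCC and 77.6, 76.9 and 77.8 CPM in RCC. Every SCC library was below every RCC library, although the fitted difference was -0.16 on the log2 scale (standard error 0.07). A large part of this gene has a near-identical copy in CYTOR, so reads of the pair cannot be fully told apart and both values are uncertain. CYTOR averaged 82.9 ± 5.9 CPM over SCC and 87.9 ± 4.7 over RCC (SD, n = 3 each), a log2 fold change of -0.09 (edgeR adjusted p = 0.551).

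Base composition differed between the hosts: MIR222HG had 37.6% GC, MIR17HG 38.1% and MIR100HG 40.4%, whereas MIR503HG had 51.4%, MIR22HG 54.0% and MIR210HG 61.1%. With an offset for GC content in the fit, the log2 fold change became -1.01 for MIR222HG, -0.94 for MIR17HG, -0.47 for MIR100HG and 1.38 for MIR22HG. MIR503HG stayed at -1.02, and MIR210HG moved from -0.00 to -0.20.

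**Figure D2:**
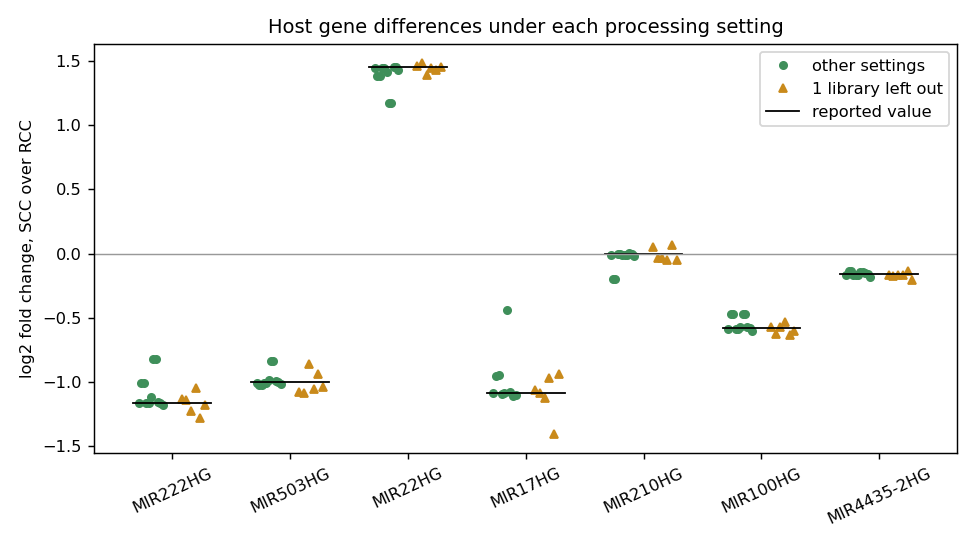
Fitted log2 fold change (SCC over RCC) of the 7 hosts under each of the other processing settings (circles) and with 1 library left out (triangles), with the reported value as a line. MIR222HG, MIR503HG, MIR17HG, MIR100HG and MIR4435-2HG lie below 0 and MIR22HG above 0 in every setting that gave a value, whereas MIR210HG lies on both sides of 0.

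Per length, the hosts changed places between the groups. The deposited FPKM (reads per unit of gene length and of library size) puts different genes on one scale. In RCC the order was MIR503HG at 6.95 ± 1.23, MIR4435-2HG at 5.90 ± 0.02, MIR100HG at 5.04 ± 0.20, MIR222HG at 3.59 ± 0.27, MIR22HG at 2.64 ± 0.20, MIR210HG at 2.59 ± 0.17 and MIR17HG at 0.981 ± 0.036 FPKM (SD, n = 3). Neighbours in that order did not overlap between libraries, apart from MIR22HG and MIR210HG. In SCC, MIR22HG led at 7.19 ± 0.11 FPKM, followed by MIR4435-2HG at 5.25 ± 0.27. MIR503HG at 3.43 ± 0.35 and MIR100HG at 3.36 ± 0.23 overlapped, and MIR210HG at 2.58 ± 0.26, MIR222HG at 1.61 ± 0.25 and MIR17HG at 0.465 ± 0.166 FPKM followed. MIR22HG thus went from the fifth place in RCC to the first in SCC, and MIR503HG from the first to the third.

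**Figure D3:**
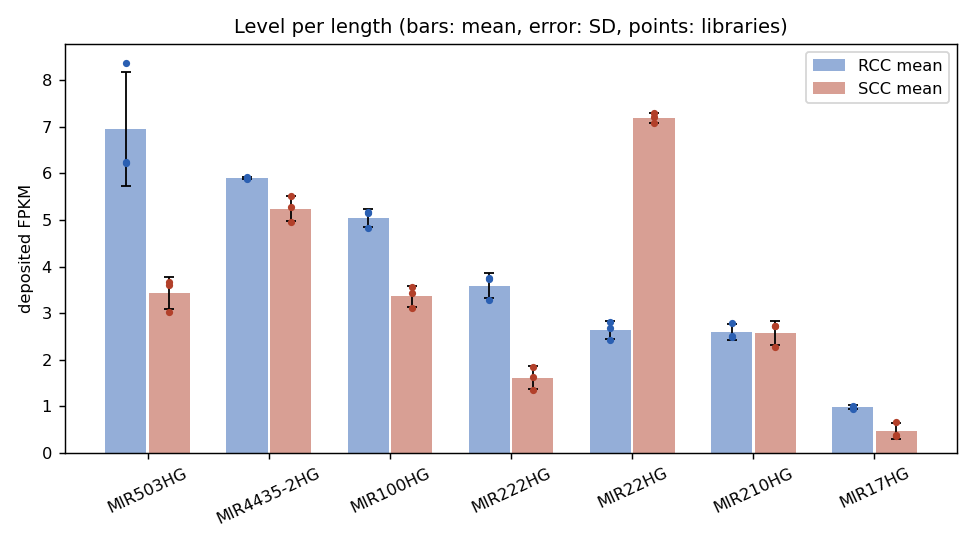
Deposited FPKM of the 7 hosts: bars are group means starting at 0, error lines are the SD (n = 3) and points are libraries. MIR22HG is the one host with a taller SCC bar beyond the spread, at 7.19 against 2.64 FPKM, and MIR210HG has bars of nearly equal height.

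The hairpins themselves are separate rows of the table. Of the 16 rows that lie in or overlap the hosts, the 7 that lie wholly in host exons (miR-22 and the 6 of MIR17HG) had 0 counts in every library. The 8 rows that lie wholly outside host exons all had some counts. MIR221 had 3, 15 and 8 counts in SCC and 2, 8 and 5 in RCC, and MIRLET7A2 had 2, 5 and 2 in SCC and 14, 8 and 3 in RCC. Those groups overlap, and none of the 16 rows had enough counts to be tested. The MIR424 row, with 19 of its bases in a MIR503HG exon, was also at 0. Hairpins cover 13.5% of the exonic length of MIR17HG, 473 bases, so reads from those bases may be missing from its count if the counting left out reads that match 2 genes. How such reads were treated was not stated in the labels.

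Host transcripts outside the 7 were tested in the same fit. The tables hold 55 more rows named MIR...HG, of which 16 were tested, and the median log2 fold change of the 16 was -0.14, against 0.00 over all tested genes and -0.07 over the 668 tested lincRNAs. By edgeR's test none of the 16 was called higher and none lower at an adjusted p under 0.05. Of all 15881 tested genes, 2.07% were called in either direction. At an unadjusted p under 0.05, 1 of the 16 was higher and 3 were lower. At that threshold 1814 of all tested genes were higher and 1313 lower. DESeq2 also called none of the 16. The smallest p belonged to MIR137HG, host of the neuronal miR-137, at 26.6 ± 1.2 CPM for SCC and 33.1 ± 1.6 for RCC (SD, n = 3 each; log2 fold change -0.31, edgeR adjusted p = 0.089). The other 3 past the unadjusted threshold were MIR4527HG (log2 fold change -0.81), MIR4453HG (-0.62) and MIR29B2CHG (0.50). Without SCC replicate 1 MIR137HG was called, and without SCC replicate 2 MIR4453HG was. Among the remaining 12, log2 fold changes ran from -0.73 for MIR2052HG to 0.90 for MIR181A1HG. The log2 fold changes were -0.35 for MIR548XHG, -0.53 for MIR762HG, -0.20 for MIRLET7BHG, -0.18 for MIR600HG and -0.10 for MIR3936HG. MIR3681HG, MIR99AHG and MIR4458HG lay within 0.06 of 0, and MIR4307HG and MIR181A2HG were at 0.38 and 0.24. The 39 rows that were not tested never passed 13 counts in a library.

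**Figure D4:**
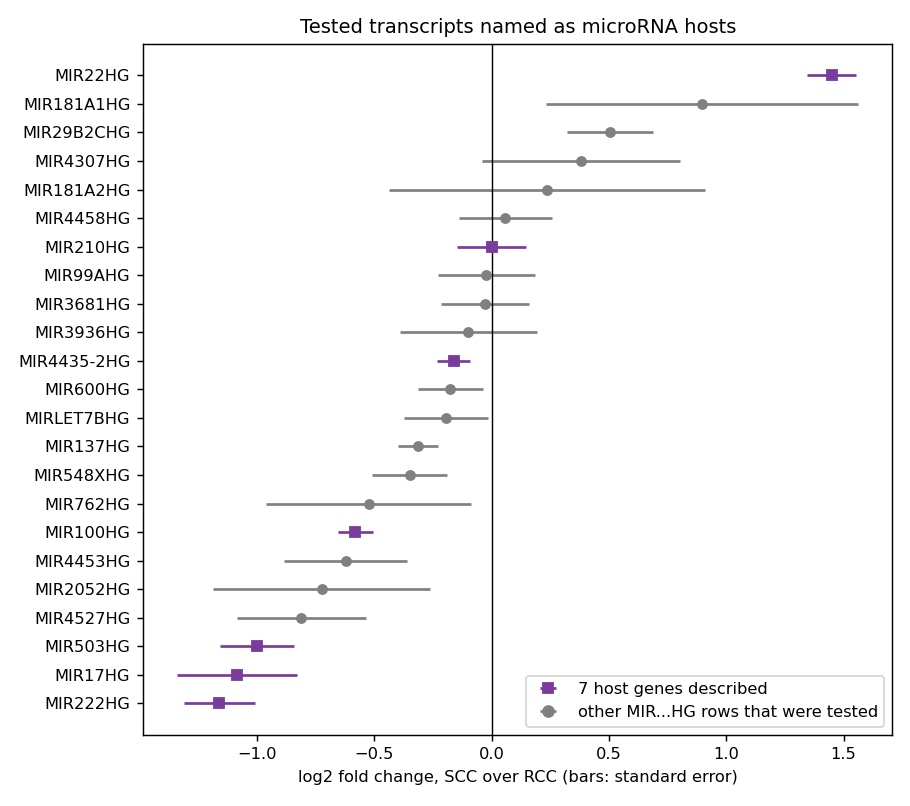
Fitted log2 fold change (SCC over RCC) with its standard error for the 7 hosts (squares) and the 16 other tested host transcripts (circles). MIR22HG at 1.45 and MIR222HG at -1.16 are the ends of the plot, and none of the 16 others passed an adjusted p under 0.05.

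Protein-coding genes that carry microRNAs in their introns were a further comparison. Of 39 listed, 35 were tested, none was called higher and 1 fell, against 2.07% of all tested genes called in either direction. That gene was GABRE, a GABA receptor subunit whose introns hold miR-224 and miR-452. It had 24.5, 27.9 and 26.7 CPM in SCC and 44.9, 41.5 and 46.8 CPM in RCC. Every SCC library was below every RCC library, as in 13.4% of all tested genes. The fitted difference was -0.75 on the log2 scale, with a standard error of 0.09 and an edgeR adjusted p of 0.0010. ZRANB2, host of miR-186, and PANK3, host of miR-103a-1, had log2 fold changes of -0.35 (edgeR adjusted p = 0.052) and -0.30 (0.063). The median of the list was -0.01. The number of these host genes called was 4 without SCC replicate 1 and 4 without SCC replicate 2.

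Most genes of the machinery that turns host transcripts into mature microRNAs did not pass the test. Of 29 listed genes, 27 were tested, 2 fell and none rose (0.378% of all tested genes fell), with a median log2 fold change of -0.04. DICER1, the enzyme that trims the hairpin, had 65.2, 75.5 and 77.0 CPM in SCC and 95.6, 90.7 and 102 CPM in RCC (log2 fold change -0.41, edgeR adjusted p = 0.035). DDX17, a helicase of the DROSHA complex, averaged 236 ± 3.9 CPM over SCC and 292 ± 10.9 over RCC (SD, n = 3 each; log2 fold change -0.31, adjusted p = 0.031). In both genes the groups did not overlap, as in 27.8% of all tested genes. TNRC6A, a scaffold of the silencing complex, had a log2 fold change of -0.30 (edgeR adjusted p = 0.054). DROSHA itself differed by a log2 fold change of 0.02 (edgeR adjusted p = 0.909). Neither call held without any 1 of the 3 RCC libraries or without SCC replicate 3, where edgeR's adjusted p ran from 0.068 to 0.193 for DICER1 and from 0.104 to 0.166 for DDX17, although both log2 fold changes stayed negative. The count rose to 5 without SCC replicate 1.

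Reported target genes of the hosted microRNAs were taken as lists. Over all 6 lists, 64 of 68 genes were tested, 5 rose and none fell, and the lists' median was 0.06 on the log2 scale. Among all tested genes 1.69% rose and 0.378% fell, and the median was 0.00. Those 5 were ICAM1, DDIT4, BMF, CDKN1A and FGFR1. The count was 3 without RCC replicate 2 or without RCC replicate 3, 12 without SCC replicate 1 and 8 without SCC replicate 2. In the list for miR-221 and miR-222, 3 of 13 tested genes rose, none fell and the median was 0.19. ICAM1, an adhesion molecule, had 7.12, 5.57 and 7.11 CPM in SCC and 2.57, 2.25 and 2.13 in RCC (log2 fold change 1.51, edgeR adjusted p = 0.0011). DDIT4, a stress-induced inhibitor of mTORC1, had 29.6, 22.4 and 24.5 CPM in SCC and 13.1, 14.0 and 13.1 in RCC (log2 fold change 0.93, edgeR adjusted p = 0.0017). BMF, a pro-death BCL2-family member, was low, at 2.93, 2.91 and 3.75 CPM in SCC and 1.26, 0.669 and 0.615 in RCC (log2 fold change 1.88, edgeR adjusted p = 0.0091). In all 3 genes every SCC library was above every RCC library, as in 14.4% of all tested genes. These genes were called on the same libraries, so that separation adds no support. The BMF call did not hold without RCC replicate 2 (edgeR adjusted p = 0.064) or RCC replicate 3 (0.059).

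CDKN1B, the best-known target of miR-221 and miR-222, did not pass the test. It averaged 58.2 ± 1.7 CPM over SCC and 59.7 ± 5.2 over RCC (SD, n = 3 each), a log2 fold change of -0.04 (edgeR adjusted p = 0.827). CDKN1C, a related cell cycle inhibitor, had a log2 fold change of 0.19 (edgeR adjusted p = 0.628). Of the 16 genes listed for miR-221 and miR-222, 9 hold seed matches, among them CDKN1B, CDKN1C and BMF. BBC3, BCL2L11, PTPRM and TIMP3 also hold a match and were not called, and KIT and ESR1 hold one but were not tested. The sites of CDKN1B, CDKN1C and BMF are shown because BMF was called and the other 2 were not. They come from the longest annotated 3′UTR of each gene (GENCODE 29), with the match to the shared GCUACAU seed in capitals.
CDKN1B site at UTR base 201: cctctaaaagcgttggATGTAGCa
CDKN1B site at UTR base 274: atagtttttaccttttATGTAGCa
CDKN1C site at UTR base 86: tcggctgggaccgttcATGTAGCa
BMF site at UTR base 3684: aggagacccagtgagaATGTAGCa
The 3′UTRs of ICAM1 and DDIT4 held no such match. So the 3 risen genes and the seed matches were not the same set, and a match of these letters is not evidence that the site is used.

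The other lists held few calls, where 1.69% of all tested genes rose and 0.378% fell. For miR-424 and miR-503, FGFR1, a growth factor receptor, rose among 12 genes (log2 fold change 0.39, edgeR adjusted p = 0.044), and the list median was 0.06. That call did not hold without any 1 of the RCC libraries or without SCC replicate 3, where the adjusted p ran from 0.106 to 0.231. CDKN1A, the cell cycle inhibitor p21, is in the lists of miR-22 and of miR-17-92 and was the 1 gene that rose in each: 48.1, 46.3 and 48.4 CPM in SCC against 29.2, 28.8 and 30.8 in RCC (log2 fold change 0.69, edgeR adjusted p = 7e-04). The medians of the 2 lists, over 10 and 11 tested genes, were -0.06 and -0.01. SP1 had -0.24 (edgeR adjusted p = 0.106), CDK6 -0.17 (0.200), E2F1 0.32 (0.173) and E2F3 -0.17 (0.212). For miR-210, edgeR called none of 11 genes, and the list median was -0.01. An unadjusted p under 0.05 was reached by FGFRL1 (log2 fold change 0.31) and E2F3. Among all 15881 tested genes it was reached by 1814 higher and 1313 lower genes. EFNA3 had 0.44 (adjusted p = 0.273). For miR-100, let-7a and miR-125b, BMF was the 1 gene called among 16, and the median was 0.11. FGFR3 had 0.54 (edgeR adjusted p = 0.062) and MYC 0.27 (0.105).

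**Figure D5:**
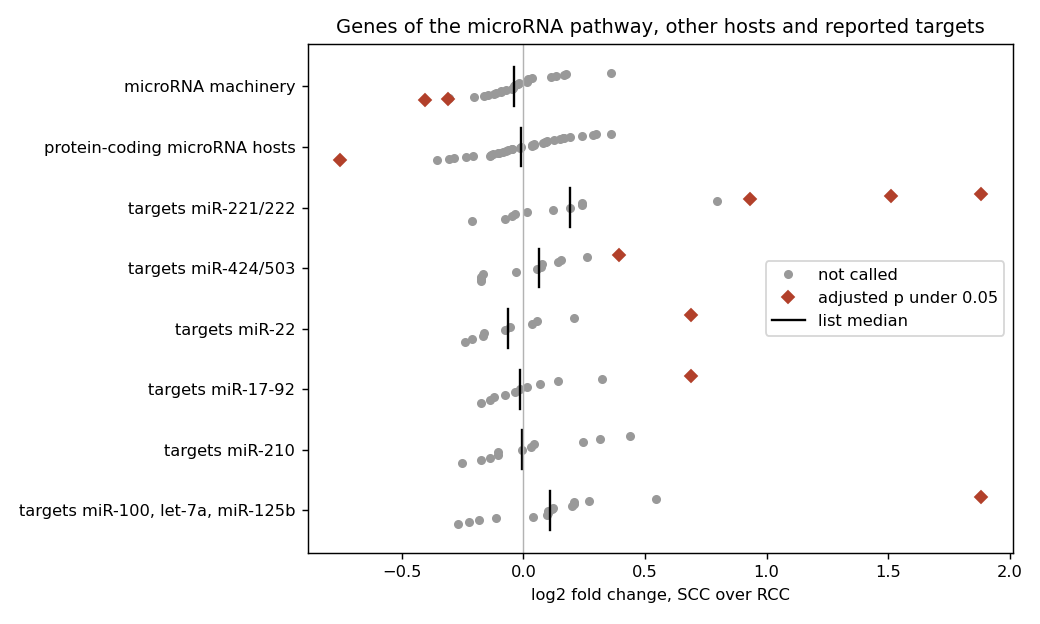
Fitted log2 fold change (SCC over RCC) of each tested gene in the lists of microRNA machinery, protein-coding hosts and reported targets, with diamonds for genes at an adjusted p under 0.05 and a line at each list's median. The called machinery genes and host gene lie below 0, the called targets lie above 0, and the list medians lie between -0.06 and 0.19.

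Beyond the named targets, genes were split by whether their longest 3′UTR holds a seed match, a split made after the values had been seen. The 1190 genes with the match to the seed of miR-221 and miR-222 had a median log2 fold change of -0.04 and the 11495 without it 0.02. These sets also differed in length: the median 3′UTR was 3379 bases with the match and 1233 without. Across all genes with a 3′UTR, the 4229 with the longest (2177 bases or more) had a median of -0.03 and the 4231 with the shortest 0.06. Without SCC replicate 1 the medians with and without the match were -0.02 and 0.01. For miR-22, the 2084 genes with a match had a median of 0.05 and the others 0.01, and without SCC replicate 1 these were 0.02 and 0.01. The widest gap among the seeds was for miR-503-5p, at 0.10 for 693 genes with a match and 0.01 for the others, which became 0.03 and 0.01 without SCC replicate 1. For miR-125b-5p the medians were 0.07 and 0.01, and 0.01 and 0.01 without it. The part of UTR length in these medians was not tested.

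None of the hosts' neighbours passed the test. Of 23 tested genes that overlap a host or are the nearest tested gene on either side at any distance, edgeR called none higher or lower. Of all 15881 tested genes, 2.07% were called. An unadjusted p under 0.05 was reached by 3 of the 23 (UBASH3B, RASSF7 and GPC6, the last 1872 kb from MIR17HG). Over all tested genes it was reached by 1814 higher and 1313 lower ones, so nothing about neighbours is read from these counts. WDR81, which overlaps MIR22HG on the other strand without sharing exonic bases, had a log2 fold change of 0.19 (edgeR adjusted p = 0.513), and TLCD2, 1.06 kb away, 0.06 (0.873). AC234772.2, which overlaps MIR222HG, had -0.47 (0.578). HPRT1, 22.8 kb from MIR503HG, had -0.18 (0.346). RASSF7, 1.64 kb from MIR210HG, had 0.28 (0.248), and UBASH3B, 99.0 kb from MIR100HG, -0.19 (0.210). BCL2L11, which shares 727 exonic bases with MIR4435-2HG on the other strand, had 0.01 (0.959).

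Genes with the profile closest to each host were ranked by the root mean square difference of centred log2 CPM over the 6 libraries. A prior count of 2 went into the log2 CPM, which shrinks differences of genes with few reads. For MIR222HG these were AC092123.1 (0.09), ZNF680 (0.12), LINC00624 (0.13), ZKSCAN2-DT (0.14) and AC117503.2 (0.16), and MIR17HG came 11th at 0.20. Some of these were near the floor. AC092123.1 averaged 0.210 CPM over SCC and 0.607 over RCC, with a fitted log2 fold change of -1.53. AC117503.2 averaged 0.440 and 0.878 CPM. ZNF680, a zinc finger gene, averaged 7.74 ± 0.99 CPM over SCC and 14.6 ± 1.1 over RCC (SD, n = 3 each). For MIR503HG the closest were HSPD1P11, AC004765.1 and AC245060.6, and for MIR17HG LINC01238, SNORA74D and LINC00624. Of these, AC004765.1, LINC01238 and SNORA74D averaged at most 0.807 CPM in either group. For MIR100HG they were the small nucleolar RNA hosts SNHG3 (0.03) and SNHG4 (0.06), with AC006058.1 (0.06) between them. For MIR22HG they were NFKBIZ (0.085), ADM (0.086) and NFKBIA (0.089). NFKBIA, the NF-kB inhibitor, had 141 ± 8.2 CPM in SCC and 50.9 ± 1.0 in RCC, and NFKBIZ, a nuclear relative of it, 54.8 ± 1.3 and 20.3 ± 0.91. ADM, which encodes adrenomedullin, had 42.9 ± 4.2 and 16.8 ± 0.92 CPM (SD, n = 3 each). For MIR210HG the closest were AC241952.1, ABT1 and SLC24A1, and for MIR4435-2HG BTD, CA12 and PPP2R1B.

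The start sites of MIR222HG, the host with the most negative reported log2 fold change, and MIR22HG, the one host above 0, are shown because the series title names the AP-1 factors. Each RefSeq window (GRCh38.p14) runs from 250 bases before to 50 after the start on the gene's strand. These starts need not be those of the counted gene models. On the minus strand the counted models of MIR22HG, MIR4435-2HG and MIR100HG start at 1717174, 111523376 and 122556721. All windows of these hosts lie inside the counted genes. Capitals mark the letters CCAAT, or ATTGG on the other strand, and in MIR22HG also CGTCA, the reverse complement of the CRE half-site TGACG.
MIR222HG chrX:45770218-45770517, minus strand: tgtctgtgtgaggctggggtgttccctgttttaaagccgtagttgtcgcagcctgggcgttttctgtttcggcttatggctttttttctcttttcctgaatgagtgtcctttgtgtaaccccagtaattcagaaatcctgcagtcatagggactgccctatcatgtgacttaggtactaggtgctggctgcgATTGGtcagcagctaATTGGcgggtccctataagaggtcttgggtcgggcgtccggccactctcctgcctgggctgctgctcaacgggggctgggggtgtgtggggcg
MIR22HG chr17:1716161-1716460, minus strand: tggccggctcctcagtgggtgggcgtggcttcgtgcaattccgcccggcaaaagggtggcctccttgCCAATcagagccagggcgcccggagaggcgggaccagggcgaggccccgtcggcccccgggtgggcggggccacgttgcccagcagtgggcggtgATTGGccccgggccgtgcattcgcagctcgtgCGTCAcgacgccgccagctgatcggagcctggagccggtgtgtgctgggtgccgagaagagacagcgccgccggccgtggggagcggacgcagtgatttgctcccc
Counted from the start site, MIR222HG held ATTGG at -58 and -43. MIR22HG held CCAAT at -183, ATTGG at -88, CGTCA at -56 and the hypoxia-core letters ACGTG, as CACGT, at -112. The AP-1 letters TGACTCA were in neither. Both strands were searched in the 12 RefSeq windows of the 7 hosts. TGACTCA was found in 1 window (MIR4435-2HG, as TGAGTCA, 41 bases after the start), the full CRE TGACGTCA in 0 and the E-box CACGTG, which contains ACGTG, in 0. TGACG, part of the full CRE, was found in 2, the NF-kB motif (GGG, any 2 bases, then TTTCC) in 1, CCAAT in 6 and ACGTG in 4. Over all 35116 RefSeq promoter windows the shares were 4.95% for TGACTCA, 1.85% for TGACGTCA, 7.26% for CACGTG, 24.6% for TGACG, 1.91% for the NF-kB motif, 34.6% for CCAAT and 21.4% for ACGTG. MIR100HG has 6 of the 12 windows, so the windows are not independent.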

How the data were processed

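RNA-seq of 6 MDA-MB-231 libraries (3 SCC, 3 RCC) was used. TRIzol RNA and an NEBNext Ultra kit were used, per the labels' protocols. The submitters' processing notes name HISAT2 2.0.5 and featureCounts 1.5.0-p3. The genome build, the annotation and the use of strand were not given in the sources used here, so overlapping genes are uncertain. All 58735 deposited rows carried GENCODE 29 (GRCh38) gene IDs and positions, and 27 names turned into dates were restored by ID. The authors deposited raw counts per gene, and FPKM values that equalled those counts divided by gene length and 1 constant per library. The libraries carry no molecular identifiers.

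The test was edgeR 4.0.16 (R 4.3.3) on the counts as deposited: filterByExpr at a minimum count of 10 (15881 genes), TMM scaling, glmQLFit and glmQLFTest on group, two-sided, with Benjamini-Hochberg adjustment over all tested genes and calls at an adjusted p under 0.05. Alternatives used DESeq2 1.42.0, limma 3.58.1 on log2(FPKM + 1) and log2(FPKM + 0.1), other scalings and filters, a GC offset, a replicate block and each library left out. Same-numbered SCC and RCC replicates had correlated deviations of -0.01, 0.02 and -0.08, so they were not treated as pairs.

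The host genes and lists were chosen with earlier results of these data known. Named genes were all hosts, their hairpins, other tested MIR...HG rows, CYTOR, called list members or the 3 with the smallest p, neighbours of hosts, the closest profiles, and HIF1A, MYC, CDKN1B and CDKN1C. DROSHA and the genes closest to a threshold in other lists were named after their values were seen. Some marker and list genes are not reported here.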

Additional observations from a re-analysis of the deposited data

How the results depend on the processing

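Over 17 other settings, MIR222HG, MIR503HG, MIR22HG, MIR100HG and MIR4435-2HG kept the direction of their difference in all, and MIR17HG in the 15 that gave it a value (it was under the FPKM filter in the other 2). MIR222HG, MIR503HG and MIR100HG were called in 16 of the 17 (not in limma on log2(FPKM + 1) without the filter), MIR22HG in all 17, and MIR17HG, not called in the reported fit, in 7 of 15 (DESeq2, the GC offset, that offset with the block, the replicate block, no filter, and without SCC replicate 1 or 2). MIR210HG kept the sign of its near-zero value in 14 of 17. Over these settings, 0.00266% to 3.44% of tested genes were called lower and 0.128% to 4.41% higher. The hosts were picked on this contrast and the settings reuse the same libraries, so nothing is read from these host calls. The number of genes higher and lower in SCC was 268 and 60. It became 548 and 297 with the GC offset, 701 and 547 with the GC offset and replicate block, 995 and 315 with no filter beyond 1 count, 117 and 34 with limma on log2(FPKM + 0.1), 130 and 36 on log2(FPKM + 1), and 48 and 1 on log2(FPKM + 1) without the filter. DESeq2 gave 120 lower, and the replicate block gave 106 lower. With 1 library left out, 99 to 642 were higher and 8 to 343 lower, with 99 to 103 higher without 1 RCC library, 642 higher without SCC replicate 1 and 585 without SCC replicate 2, and 19 lower without SCC replicate 3. Other host transcripts called (0) became 1 with the GC offset, with it and the block, and with no filter, and 0 to 1 with a library left out. Machinery genes called (2) became 5 with the GC offset and block, 0 in all 3 limma fits, and 0 to 5 with a library left out. Protein-coding hosts called (1) became 3 with DESeq2 and with the GC offset and block, 2 with the GC offset, the replicate block or upper-quartile scaling, 5 with no filter, 0 with limma without the filter, and 1 to 4 with a library left out. Reported targets called (5) became 12 with the GC offset and block, 10 with the GC offset, 9 with no filter, 3 in both filtered limma fits, 1 in the unfiltered one, and 3 to 12 with a library left out. The settings differ in the number of libraries and of genes tested, and the cause of these changes was not tested. MIR17HG rested on 26 to 82 reads per library, and no hairpin row of the hosts had enough counts to be tested.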
